A study of Mus musculus with 12 samples.

Results

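Glucocorticoid responsive genes are genes whose transcription is known to change when corticosterone, the main stress steroid of the mouse, acts on its receptors. A set of 32 such genes was taken from general knowledge of this response and matched by symbol to the deposited expression table, which lists 54532 genes; all 32 were found. RNA was sequenced from the lateral septum, a forebrain nucleus that links the hippocampus with the hypothalamus, in 12 libraries of wild-type mice at day 3. In 6 libraries the mice had received saline and in 6 CFA, which commonly stands for complete Freund's adjuvant, a mixture of oil and killed mycobacteria used to inflame tissue for days. The labels give no strain, age, sex, injection site, hour of dissection or steroid measurement, and do not say whether each library came from a separate animal, so the p-values rest on differences among libraries that may be technical.

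Corticosterone enters cells and binds the glucocorticoid receptor, which then moves to the nucleus and attaches to DNA at a palindromic element, the glucocorticoid response element. Typical induced genes encode a chaperone that dampens the receptor itself, anti-inflammatory proteins, enzymes that shift fuel use from glucose towards fat, and inhibitors of growth. The lateral septum is rich in receptors of the stress axis and takes part in affective responses to stress. Several of these genes also respond to other signals, such as neuronal activity, fasting, DNA damage or metals, and the files hold no measure of receptor binding.

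The members were spread over 17 chromosomes, and their levels spanned a wide range. Levels are given in FPKM, fragments counted per length of gene and scaled to the size of the library. Over all 12 libraries the 31 tested members had mean levels from 1.10 to 172 FPKM, with a median of 9.22 FPKM, against a median of 6.62 FPKM over the 13345 genes tested. Mt1, Rhob and Fam107a were the most abundant, and Map3k6, Cebpd and Angptl4 were among the least. A gene was tested if it reached 1 FPKM in at least 6 libraries. Of the 32 members, 28 reached 1 FPKM in every library, and Angptl4 alone did not pass.

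Most members stood higher in CFA than in saline, by small to moderate amounts. The log2 fold change, taken as CFA minus saline after adding 1 to each FPKM, was positive for 30 of the 31 tested members, where 48.0% of all genes tested were positive. The median over these members was 0.23, against -0.00427 over all genes tested. At an unadjusted p under 0.05 by limma, 20 of the 31 were higher in CFA and 0 lower, where 3.11% of all genes tested were higher and 4.56% lower at that level. No member passed the Benjamini-Hochberg adjusted threshold of 0.05 over all genes tested, which 4 genes, or 0.03%, passed; the adjusted p of members ran from 0.140 to 0.991. With the expression filter set on the mean of all 12 libraries instead, all 32 members were tested, 31 were positive and 20 were higher at an unadjusted p under 0.05. Members were chosen with earlier results of these data known, so these counts are descriptions.

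**Figure D1:**
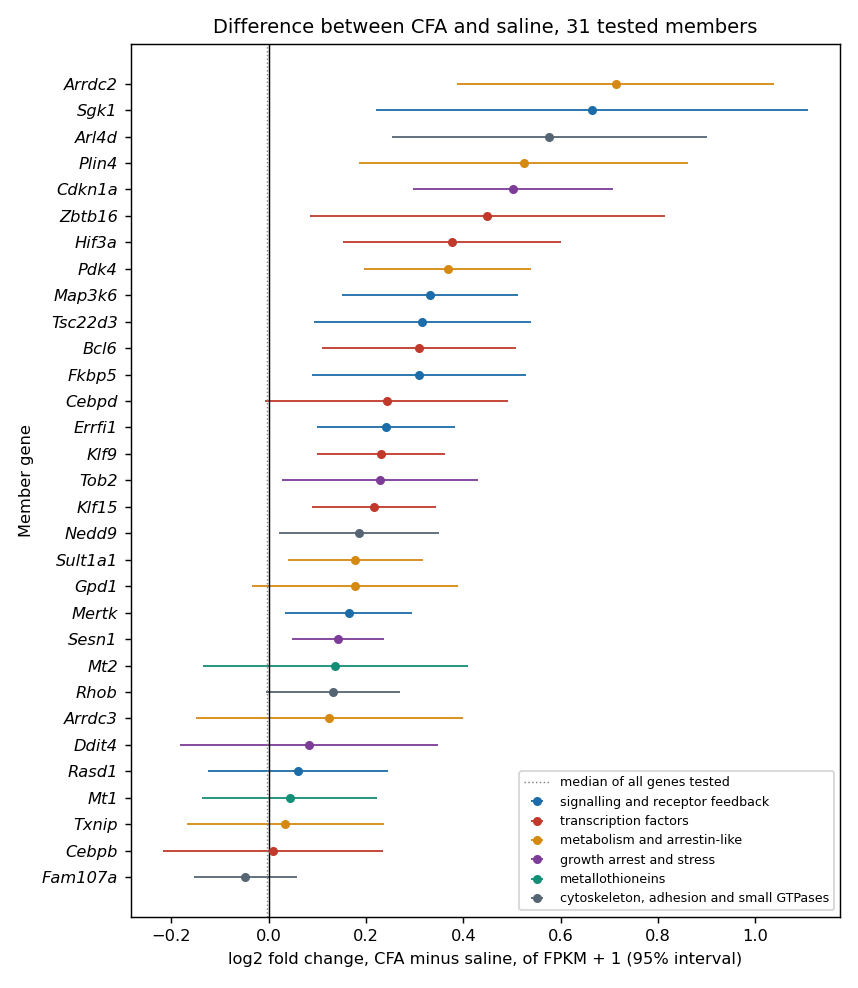
Log2 fold change of each tested member (CFA minus saline after adding 1 to each FPKM, x axis) with its 95% interval from limma, sorted by size and coloured by role. The interval lay above 0 for 20 members and spanned 0 for 11, and Fam107a is the single member with a negative estimate.

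Among the genes that signal within cells or feed back on the receptor, 7 were tested, 7 were positive and 6 were higher at an unadjusted p under 0.05. The counts of this and the other role groups stand beside 48.0% of all genes tested positive and 3.11% higher. Fkbp5 encodes a co-chaperone that lowers the affinity of the glucocorticoid receptor for its hormone and is itself a classic target of that receptor. Its level lay between 5.78 and 7.22 FPKM in saline (median 6.57) and between 6.31 and 11.3 FPKM in CFA (median 8.62). All CFA libraries other than CFA 1 lay above every saline library. The log2 fold change of Fkbp5 (chromosome 17, 28399094 to 28517527, minus strand) was 0.31 (SE 0.10, limma adjusted p = 0.436).

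Tsc22d3 encodes GILZ, a leucine zipper protein that carries part of the anti-inflammatory action of glucocorticoids. It was found at 16.9 to 26.6 FPKM in saline (median 21.5) and at 23.0 to 31.5 FPKM in CFA (median 28.5). The groups overlapped, since saline 4 and saline 6 lay above CFA 1 and CFA 4. For Tsc22d3, on chromosome X (140539528 to 140600659, minus strand), the difference was 0.32 on the log2 scale (SE 0.10, limma adjusted p = 0.428).

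Sgk1 encodes a kinase that regulates ion channels and transporters and is induced by glucocorticoids in many tissues, oligodendrocytes included. Saline libraries lay within a narrow band of 10.2 to 13.0 FPKM (median 11.7), whereas CFA libraries ranged from 9.22 to 30.1 FPKM (median 19.1). Of the CFA libraries, 5 exceeded every saline library and CFA 1 was below all of them. The SD was 0.940 FPKM in saline and 7.49 FPKM in CFA, 7.97 times as large, the widest such ratio among the members. For Sgk1 (chromosome 10, 21882184 to 21999903, plus strand) the log2 fold change was 0.66 (SE 0.21, limma adjusted p = 0.401), and without CFA 1 it was 0.86 (SE 0.13, limma adjusted p = 0.0401). Values without CFA 1, here and for members below, are given after its low values were seen.

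Map3k6, a stress-activated kinase of the MAP kinase cascade, was low, at 0.774 to 1.21 FPKM in saline (median 1.04) and 1.25 to 1.87 FPKM in CFA (median 1.48). Every CFA library lay above every saline library, on 128 to 320 reads per library. Its log2 fold change was 0.33 (SE 0.08, limma adjusted p = 0.285). Errfi1, an inhibitor of the epidermal growth factor receptor, had 0.24 (SE 0.07), with CFA 3 highest at 14.2 FPKM. Mertk, a receptor kinase through which phagocytes take up dying cells, had 0.16 (SE 0.06), and 0.08 without saline 3 and saline 5, its lowest libraries. CFA 1 held its highest value, 14.8 FPKM, and the other CFA libraries lay between 13.2 and 14.2. Rasd1, a dexamethasone-induced small GTPase, differed least in this group, with 0.06 and a 95% interval of -0.12 to 0.24.

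**Figure D2:**
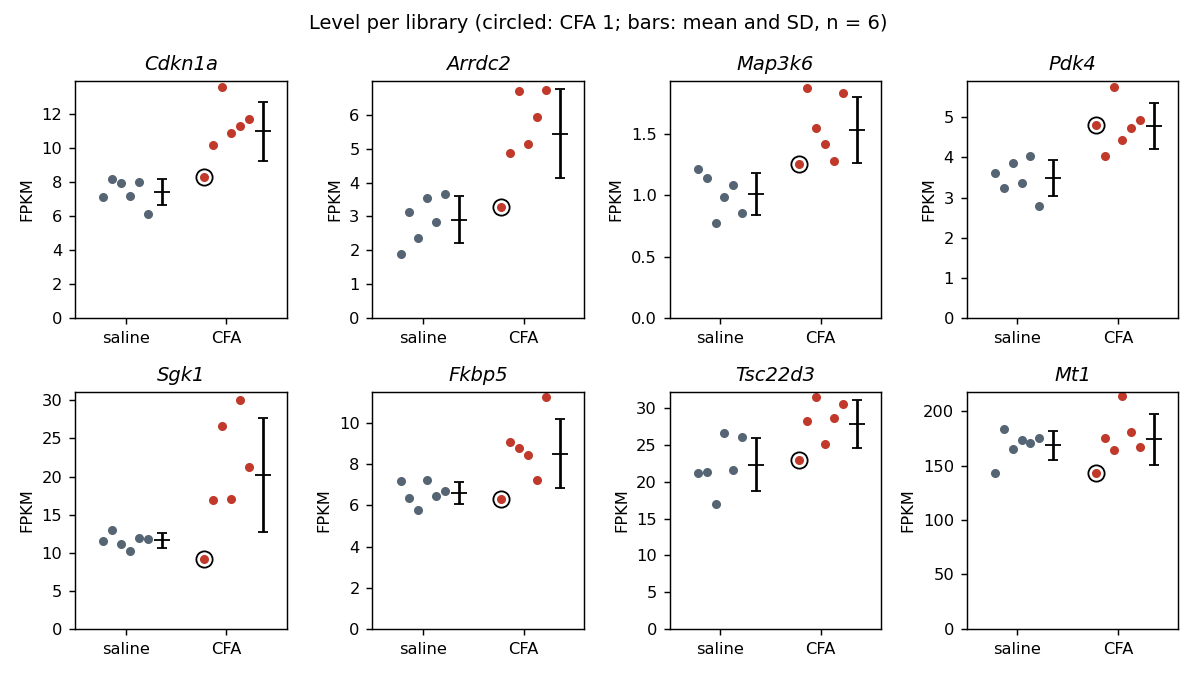
Level in FPKM (y axes from 0) of 8 members in the 6 saline (grey) and 6 CFA (red) libraries, with the mean and SD beside each group and CFA 1 circled. Map3k6 and Cdkn1a do not overlap between groups, Sgk1 and Fkbp5 overlap through CFA 1, and Mt1 overlaps throughout.

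RefSeq promoter windows of 300 bases, 250 before and 50 after an annotated start (build GRCm38.p6), were found for 27 members, 42 windows in all; Angptl4, Cebpd, Gpd1, Rasd1 and Zbtb16 had no entry. The full palindrome of the glucocorticoid response element, AGAACA, any 3 bases and TGTTCT, was searched on both strands. It occurred in 3 of 32851 windows (0.00913%), of which 1 was a window of Sgk1. This window is shown because it holds that element, in capitals, beginning at position -189 from the start.
Sgk1 promoter, chr10:21993640-21993939, plus strand: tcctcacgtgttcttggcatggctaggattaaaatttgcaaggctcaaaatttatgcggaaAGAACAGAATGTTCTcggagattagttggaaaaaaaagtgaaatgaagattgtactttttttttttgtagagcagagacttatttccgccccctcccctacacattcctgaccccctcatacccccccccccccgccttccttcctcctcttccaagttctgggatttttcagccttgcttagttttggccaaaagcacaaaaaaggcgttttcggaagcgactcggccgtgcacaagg

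A relaxed form, GNACA, any 3 bases and TGTNC, which any full palindrome also matches, was searched on both strands and occurred in 156 of the 32851 windows (0.475%). Among members it was found in 6 of 42 windows, which belong to 5 members: Sgk1, Map3k6, Mt1, Txnip and Fam107a. Of these, Sgk1 and Map3k6 were higher in CFA at an unadjusted p under 0.05, and the other three had fold changes of 0.04, 0.03 and -0.05 with intervals that spanned 0. The Map3k6 window and the stretches around the other matches are printed for comparison, with the matched letters in capitals, Fam107a once for a pair of starts that share the match.
Map3k6 promoter, chr4:133240568-133240867, plus strand: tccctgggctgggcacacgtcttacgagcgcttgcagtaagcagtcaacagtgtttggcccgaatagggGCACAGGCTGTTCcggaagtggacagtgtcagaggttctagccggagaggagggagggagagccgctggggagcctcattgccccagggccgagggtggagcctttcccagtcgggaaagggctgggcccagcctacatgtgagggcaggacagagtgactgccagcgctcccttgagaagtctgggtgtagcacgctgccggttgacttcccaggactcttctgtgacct
Mt1 promoter, chr8:94178961-94179041, plus strand: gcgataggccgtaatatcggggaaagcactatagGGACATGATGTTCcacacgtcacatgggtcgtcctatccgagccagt
Txnip promoter, chr3:96557751-96557831, plus strand: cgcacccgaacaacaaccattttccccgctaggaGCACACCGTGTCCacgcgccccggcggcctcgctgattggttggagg
Fam107a promoter, chr14:8309851-8309931, minus strand: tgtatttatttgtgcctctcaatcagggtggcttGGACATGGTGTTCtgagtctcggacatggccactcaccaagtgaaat
The half-site TGTTCT, searched on both strands, occurred in 8 of the 42 member windows and in 19% of all windows. A match describes letters only. Gene-level FPKM does not say which start was used, and elements farther from the start lie outside these windows.

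Transcription factor genes formed the next group, with 7 tested, 7 positive and 5 higher at an unadjusted p under 0.05. Klf9, a zinc finger factor that is a direct target of the glucocorticoid receptor in neurons, lay between 40.7 and 50.1 FPKM in saline (median 46.0) and between 49.7 and 62.6 FPKM in CFA (median 53.1). CFA 4 was the single CFA library below the highest saline library. Klf9 (chromosome 19, 23141226 to 23166911, plus strand) differed by 0.23 on the log2 scale (SE 0.06, limma adjusted p = 0.308). Klf15, a relative that controls amino acid and lipid use, had 0.22 (SE 0.06, limma adjusted p = 0.308), with 9.87 to 11.9 FPKM in saline and 11.3 to 13.8 FPKM in CFA.

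Zbtb16, which encodes the repressor PLZF, differed more but was also more spread, at 4.76 to 8.32 FPKM in saline (median 6.45) and 5.07 to 12.4 FPKM in CFA (median 9.71). CFA 1 held its lowest CFA value, and the other CFA libraries lay above every saline library, saline 1 included. The log2 fold change of Zbtb16 was 0.45 (SE 0.17, limma adjusted p = 0.550). Bcl6, a repressor of inflammatory genes, had 0.31 (SE 0.09), and Hif3a, an antagonist within the hypoxia-inducible factor family, had 0.38 (SE 0.10), from a mean of 1.70 to 2.49 FPKM.

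The C/EBP factors, which act in acute-phase and fat cell gene programs, gave less. Cebpd had 0.24 with a 95% interval of -0.01 to 0.49, on 94 to 277 reads per library. Cebpb had 0.01 (interval -0.22 to 0.23), and its levels of 2.41 to 3.50 FPKM in saline and 2.11 to 3.79 FPKM in CFA overlapped throughout.

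Klf15 is printed for a further feature of its promoter. Its window held 3 copies of the E-box CACGTG, which reads the same on both strands and is bound by clock factors among others, shown in capitals. That motif occurred in 7.15% of all windows and in 4 of the 42 windows of members, the others being of Bcl6, Fkbp5 and Sgk1.
Klf15 promoter, chr6:90462326-90462625, plus strand: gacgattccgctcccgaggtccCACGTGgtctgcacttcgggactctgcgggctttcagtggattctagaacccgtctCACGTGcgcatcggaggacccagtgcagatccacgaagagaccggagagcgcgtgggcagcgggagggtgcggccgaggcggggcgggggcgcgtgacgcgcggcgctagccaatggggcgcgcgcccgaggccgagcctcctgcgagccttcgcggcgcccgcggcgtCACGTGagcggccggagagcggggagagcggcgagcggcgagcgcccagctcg

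Of the genes of metabolism and the arrestin-like proteins, 7 of 8 were tested, 7 were positive and 4 were higher at an unadjusted p under 0.05. Pdk4 encodes a kinase that shuts off pyruvate dehydrogenase and so spares glucose. It lay between 2.80 and 4.03 FPKM in saline (median 3.49) and between 4.03 and 5.75 FPKM in CFA (median 4.77). Of the CFA libraries, 5 exceeded every saline library, and CFA 1, at 4.81 FPKM, was among them. Pdk4 (chromosome 6, 5483351 to 5496309, minus strand) differed by 0.37 on the log2 scale (SE 0.08, limma adjusted p = 0.169).

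Arrdc2, an alpha-arrestin, had the largest fold change of the tested members. It lay between 1.89 and 3.67 FPKM in saline (median 2.98) and between 3.27 and 6.72 FPKM in CFA (median 5.54), with CFA 1 lowest of its group and the other CFA libraries above every saline library. The log2 fold change of Arrdc2 (chromosome 8, 70835129 to 70839720, minus strand) was 0.71 (SE 0.15, limma adjusted p = 0.165), and without CFA 1 it was 0.83 (SE 0.13, limma adjusted p = 0.0373). Its relatives Arrdc3 (0.12, interval -0.15 to 0.40) and Txnip, an inhibitor of thioredoxin and of glucose uptake (0.03, interval -0.17 to 0.24), stood little apart between groups.

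Plin4, a lipid droplet coat protein, was found at 0.581 to 2.29 FPKM in saline (median 0.962) and 1.44 to 2.80 FPKM in CFA (median 1.95). A single saline library, saline 5, reached the CFA range. Its log2 fold change was 0.52 (SE 0.16, limma adjusted p = 0.389). Sult1a1, a sulfotransferase, had 0.18 (SE 0.06), and Gpd1, the glycerol phosphate dehydrogenase of the cytosol, also had 0.18 but with an interval of -0.03 to 0.39. For Gpd1 the CFA libraries other than CFA 1 lay above every saline library, and CFA 1, at 10.2 FPKM, was the lowest of all. Without CFA 1 the log2 fold change of Gpd1 was 0.27 (SE 0.06, limma adjusted p = 0.169). Angptl4, an inhibitor of lipoprotein lipase that did not pass the filter, lay between 0.574 and 1.11 FPKM in saline and between 0.770 and 1.71 FPKM in CFA; fitted without a filter its log2 fold change was 0.25 (SE 0.12, limma adjusted p = 0.852).

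Genes of growth arrest and cellular stress were tested in full, with 4 of 4 positive and 3 higher at an unadjusted p under 0.05. Cdkn1a encodes p21, an inhibitor of cyclin-dependent kinases that p53 and the glucocorticoid receptor both induce, and it had the smallest p of the members. Saline libraries held 6.12 to 8.22 FPKM (median 7.57) and CFA libraries 8.31 to 13.6 FPKM (median 11.1). The groups did not overlap, although CFA 1 exceeded the highest saline library only slightly. The log2 fold change of Cdkn1a (chromosome 17, 29090976 to 29100727, plus strand) was 0.50 (SE 0.10, limma adjusted p = 0.140), and without CFA 1 it was 0.57 (SE 0.08, limma adjusted p = 0.0226).

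Sesn1, a sestrin that restrains mTOR signalling, differed by a small amount with little spread, from 15.5 ± 0.487 to 17.2 ± 1.12 FPKM (SD, n = 6 each; log2 fold change 0.14, SE 0.04). Tob2, an antiproliferative protein, had 0.23 (SE 0.09). Ddit4, also called REDD1, another brake on mTOR and a familiar target of glucocorticoids, lay between 22.7 and 35.6 FPKM in saline and between 24.6 and 38.4 FPKM in CFA. Its fold change of 0.08 had an interval of -0.18 to 0.35, and the groups overlapped.

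The metallothioneins, small proteins that bind zinc and copper and are induced by both metals and steroids, comprised 2 members, of which 0 were higher at an unadjusted p under 0.05. Mt1 lay between 144 and 183 FPKM in saline and between 144 and 214 FPKM in CFA, with a log2 fold change of 0.04 (interval -0.14 to 0.22). Mt2, far lower per length at 5.00 ± 0.667 and 5.69 ± 1.49 FPKM (SD, n = 6 each), had 0.14 (interval -0.14 to 0.41). Mt1 and Mt2 are close copies, and reads could be split between them.

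Among genes of the cytoskeleton, adhesion and small GTPases, 3 of 4 were positive and 2 were higher at an unadjusted p under 0.05. Arl4d, a small GTPase of the ARF family, lay between 5.54 and 9.02 FPKM in saline (median 7.99) and between 7.01 and 15.1 FPKM in CFA (median 12.7). CFA 1 lay within the saline range and the other CFA libraries above it. For Arl4d (chromosome 11, 101665541 to 101667832, plus strand) the log2 fold change was 0.58 (SE 0.15, limma adjusted p = 0.308), and without CFA 1 it was 0.71 (SE 0.11, limma adjusted p = 0.0340). Nedd9, a scaffold protein of focal adhesions, had 0.19 (SE 0.08), and Rhob, a small GTPase of endosomes, had 0.13 (interval -0.01 to 0.27). Fam107a, an actin-associated protein induced by stress in the brain, had -0.05 (interval -0.15 to 0.06), from 163 to 157 FPKM.

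By size, the log2 fold change exceeded 0.5 for 5 tested members (Arrdc2, Sgk1, Arl4d, Plin4 and Cdkn1a), lay above 0.2 and up to 0.5 for 12, and was 0.2 or less for 14. Adding 1 to each FPKM shrinks the fold changes of members near 1 FPKM, so this order depends on that choice. With 0.1 added instead, Map3k6 was 0.56 and Plin4 0.86, against 0.33 and 0.52. Every CFA library lay above every saline library for 2 members, Cdkn1a and Map3k6, or 6.45% of those tested, against 0.202% of all genes tested. Leaving CFA 1 aside, a choice made after its values were seen, this held for 10 members, against 0.42% of all genes tested.

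**Figure D3:**
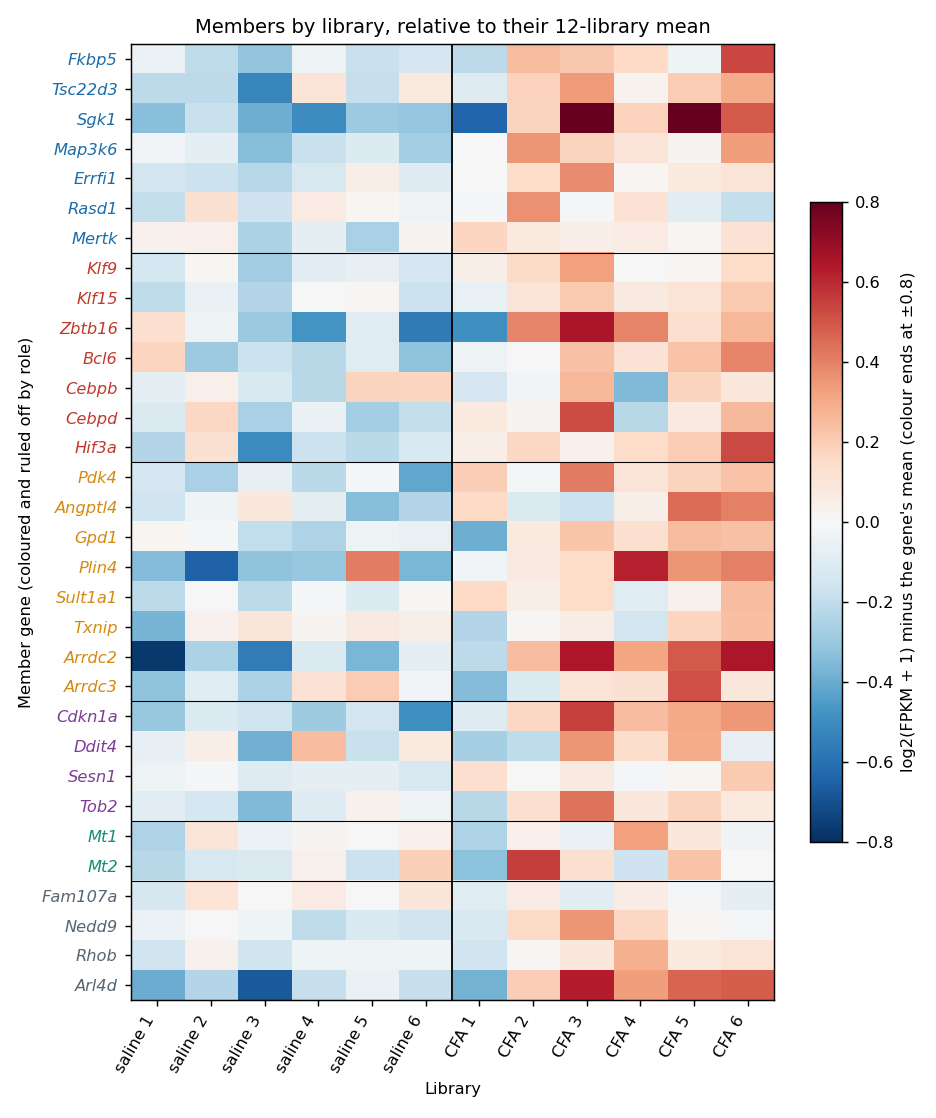
Deviation of each member's log2(FPKM + 1) from its 12-library mean (colour, ending at ±0.8) in each library (columns, saline left of the line, CFA right), with members ordered and ruled off by role. CFA 2 to CFA 6 are mostly above the mean and CFA 1 mostly below. Averaged over members, every saline library is below the mean, saline 3 and saline 1 the most.

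Averaged over the 32 members, the deviation from the 12-library mean on the log2(FPKM + 1) scale gave a score for each library. Saline libraries ranged from -0.236 (saline 3) to -0.0721 (saline 2). CFA libraries ranged from -0.119 (CFA 1) to 0.257 (CFA 3), with CFA 4 at 0.106, CFA 2 at 0.116, CFA 5 at 0.194 and CFA 6 at 0.222. CFA 1 thus lay inside the saline range, and the other 5 CFA libraries lay above it. The mean deviation over all genes tested ran from -0.00584 (saline 4) to 0.00576 (saline 3).

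Counting members gave the same order of groups. In CFA 2 to CFA 6, between 24 and 29 of the 32 members were above their own 12-library median, in CFA 1 11 were, and in saline libraries between 2 (saline 3) and 14 (saline 2) were. CFA 3 held the highest value of 13 members and CFA 6 of 7. Within the CFA group, CFA 1 held the lowest value of 22 members; it was at or below the saline mean for 15. CFA 1 lay above every saline library for Map3k6, Mertk, Klf9, Pdk4, Angptl4, Sult1a1, Cdkn1a and Sesn1. Without CFA 1, 22 of 31 tested members were higher at an unadjusted p under 0.05, where 3.19% of all genes tested were. Cdkn1a, Arl4d, Arrdc2 and Sgk1 then passed the adjusted threshold, among 10 genes (0.0749%) that did so in all. No other single left-out library brought a member past that threshold. CFA 1 was singled out after its low member values were seen, so these counts are descriptions. Without it the log2 fold change fell for Mertk (0.15), Sesn1 (0.13), Sult1a1 (0.16) and Pdk4 (0.36) and rose for the other tested members.

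**Figure D4:**
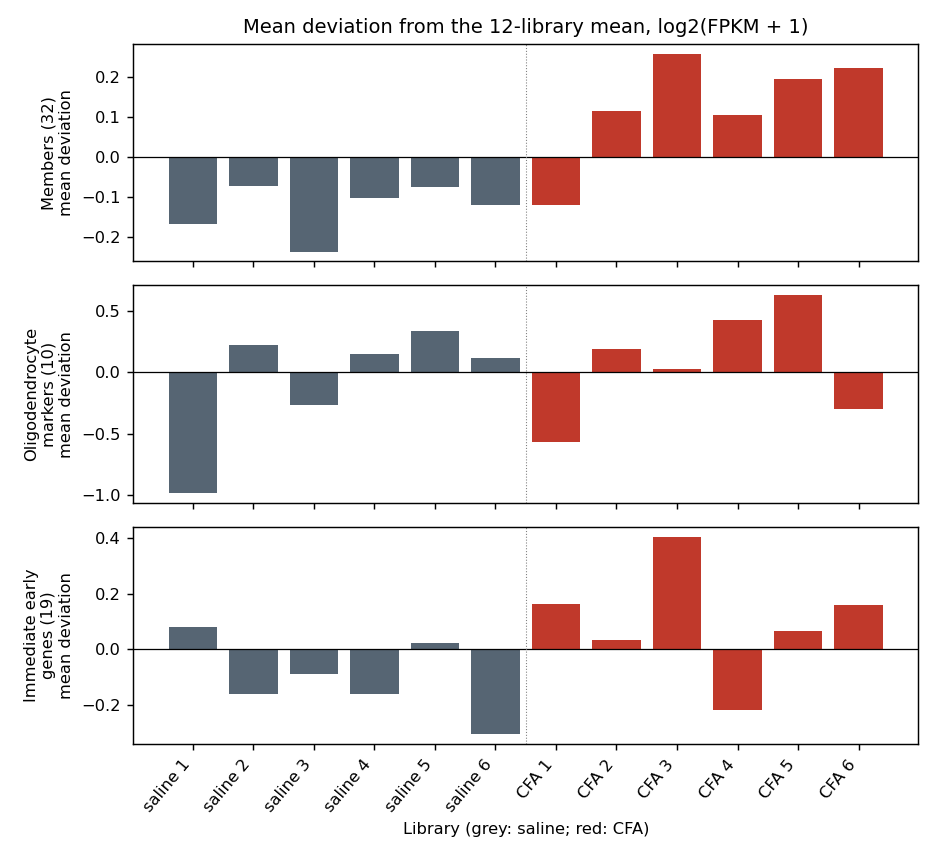
Mean deviation from the 12-library mean of log2(FPKM + 1) (y axes) in each library (x axis; grey saline, red CFA) for the 32 members, 10 oligodendrocyte markers and 19 tested immediate early genes. The member mean is negative in the saline libraries and CFA 1 and positive in CFA 2 to CFA 6, oligodendrocyte markers are lowest in saline 1 and CFA 1, and immediate early genes are highest in CFA 3.

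Other features of the libraries also differed. Xist, transcribed from the inactive X chromosome of females, exceeded 1 FPKM in 2 saline and 5 CFA libraries, and the Y-linked Ddx3y in the remaining ones. Among libraries with Xist, 25 of 31 tested members were positive (44.4% of all genes tested), the median was 0.13, and 5 were higher at an unadjusted p under 0.05 (1.81% of all genes tested): Arrdc2, Tsc22d3, Cdkn1a, Pdk4 and Bcl6. Among these libraries the log2 fold change was 0.10 for Klf9, 0.11 for Klf15, 0.21 for Zbtb16, 0.13 for Errfi1, 0.10 for Tob2, 0.10 for Nedd9, 0.33 for Cdkn1a and 0.37 for Arl4d, each less than over all 12 libraries by more than 1.5 times. The libraries without Xist held a single CFA library, CFA 3, which also had the highest member score. Among these libraries 30 of 31 tested members were positive (51.5% of all genes tested) and the median was 0.37. Both values rest on CFA 3 alone. With the Xist level as a covariate, 29 members were positive (47.6% of all genes tested), 21 were higher (2.68% of all genes tested) and the median was 0.24.

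Tissue content also varied. Of 14 lateral septum markers 13 were tested, 0 were positive and 0 passed the threshold, with a median of -0.12 and a summed level of 725 to 820 FPKM in saline and 657 to 809 FPKM in CFA. Of the 10 oligodendrocyte markers, 9 were positive and 0 passed; their summed level ran from 882 to 2299 FPKM in saline and from 1166 to 2779 FPKM in CFA, lowest in saline 1 and CFA 1. With their mean as a covariate 29 members were positive (47.5% of all genes tested), 20 were higher at an unadjusted p under 0.05 (3.92% of all genes tested) and the median was 0.21. Choroid plexus markers (0 of 5 tested positive, median -0.44) were high in saline 3 and saline 5, where Ttr, their main transcript, reached 2259 and 701 FPKM against at most 66.6 elsewhere. Without these 2 libraries 29 members were positive (47.4% of all genes tested), 16 were higher (3.39% of all genes tested) and the median was 0.20. Striatal markers were 14 of 14 positive, with a summed level of 249 to 391 FPKM in saline and 246 to 661 FPKM in CFA, highest in CFA 1, with a median of 0.46. With their mean as a covariate 30 members were positive (47.9% of all genes tested) and 21 higher (3.84% of all genes tested). Endothelial markers had 5 of 10 positive and summed levels of 74.2 to 88.7 FPKM in saline and 71.2 to 86.4 FPKM in CFA. At an unadjusted p under 0.05 by limma, 0 of them were higher and 2 lower (3.11% and 4.56% of all genes tested). With the endothelial mean as a covariate 30 members were positive (47.8% of all genes tested), 19 were higher (3.15% of all genes tested) and the median was 0.19. Erythroid genes (5 of 5 tested positive, median 0.73, 0 past the threshold) summed to 157 to 334 FPKM in saline and 78.9 to 668 FPKM in CFA, lowest in CFA 6, and their part in the member values was not tested. No listed marker was at 0 in all libraries. In whole tissue, fewer cells of a type and less RNA per cell cannot be told apart.

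Neuronal activity and time of day were read from other lists. Of 19 tested immediate early genes, which neurons switch on within minutes of firing, 18 were positive (48.0% of all genes tested), with a median of 0.20. At an unadjusted p under 0.05, 5 were higher (3.11% of all genes tested), and 0 passed the threshold. Npas4 (0.48), Egr1 (0.39), Nr4a1 (0.51) and Junb (0.31) had the smallest p. With the mean of the immediate early list as a covariate 30 members were positive (47.4% of all genes tested) and 16 higher (2.81% of all genes tested), with a median of 0.18. CFA 3 was highest in both the immediate early and the member score (0.404 and 0.257), CFA 2, CFA 5 and CFA 6 were above 0 in both, and saline 2, saline 3, saline 4 and saline 6 were below 0 in both. CFA 1 was above 0 for the immediate early list (0.162) and below it for the members, as were saline 1 and saline 5, and CFA 4 was the reverse (-0.218 and 0.106). Of 15 circadian clock genes, 9 were positive with a median of 0.01 and 0 past the threshold; Clock (0.14) and Dbp (-0.23) had the smallest p. Astrocyte markers (3 of 10 positive, median -0.04) and pan-neuronal markers (0 of 10 positive, median -0.08) lay lower. At an unadjusted p under 0.05, 1 astrocyte marker was higher and 1 lower, and 3 pan-neuronal markers were lower. Microglia markers had 5 of 12 positive, with 4 higher and 4 lower at that level. Over all genes tested 3.11% were higher and 4.56% lower. Ctss passed the threshold (0.48, limma adjusted p = 0.0304); C1qa (0.32), C1qc (0.36) and Cx3cr1 (-1.41, from 9.10 to 3.18 FPKM, limma adjusted p = 0.115) did not.

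Genes that carry the hormone signal upstream of the members had a median near 0. The list held 18 genes for corticosteroid receptors, their chaperones and co-regulators and the enzymes that activate or inactivate corticosterone. Of 16 tested, 5 were positive and 11 negative, the median was -0.05, and 0 passed the threshold. At an unadjusted p under 0.05, 1 was higher and 2 were lower. The genes named here are the 4 of smallest p, and no receptor is among them. Fkbp4, the co-chaperone that opposes Fkbp5 by favouring receptor transport to the nucleus, averaged 66.4 ± 5.31 FPKM in saline against 56.7 ± 6.86 FPKM in CFA libraries (SD over 6 libraries; log2 fold change -0.23, SE 0.08, limma adjusted p = 0.453). Stip1, which hands client proteins from HSP70 to HSP90, had -0.15, H6pd, which supplies cofactor to the corticosterone-producing enzyme, had -0.16, and the chaperone Hspa8 had 0.29.

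A second list held 12 other genes commonly induced by glucocorticoids. Of 10 tested, 8 were positive (48.0% of all genes tested) and 3 were higher at an unadjusted p under 0.05 (3.11% of all genes tested). Of these genes 0 passed the threshold, and the median was 0.14. Tgm2, a transglutaminase, averaged 2.37 ± 0.385 FPKM in saline against 3.14 ± 0.373 FPKM in CFA libraries (SD over 6 libraries; log2 fold change 0.30). Gjb6, the astrocyte gap junction protein connexin 30 and also among the astrocyte markers, had 0.17, as did Zfp36, which speeds the decay of cytokine mRNAs (0.17). Cdkn1c, encoding p57, had -0.41 with SD of 1.53 FPKM in saline, above its CFA mean of 1.17 FPKM.

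Library patterns were then compared between members after each gene's group mean was removed, so that the difference between group means did not enter the correlation. After this step CFA 1, whose member score lay inside the saline range, still stood apart from the other CFA libraries. The correlations can carry that contrast. Over the 465 pairs of tested members the median Pearson r across the 12 libraries was 0.28, and 6.67% of pairs had r of at least 0.7. Over all pairs of all genes tested the median was 0 and 1.84% reached 0.7. No pair passed Benjamini-Hochberg adjustment over the 465 by permutation within groups, with 100000 resamples. By r 60 pairs (12.9%) had an unadjusted permutation p under 0.05, 56 of them positive, and by Spearman's rank correlation 48 did. The share of all gene pairs under that p was not computed, so these counts are descriptions. Without CFA 1 the median r was 0.16, and with any other single library left out it was 0.27 to 0.33.

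Grouping by average r of at least 0.5 placed 9 members together: Tsc22d3, Sgk1, Klf15, Gpd1, Arrdc2, Arrdc3, Ddit4, Tob2 and Arl4d. Their pairwise r lay between 0.44 and 0.90. Not every pair held without the 2 libraries farthest from the median of the first gene. For Tsc22d3 with Gpd1 r went from 0.44 to -0.31 without CFA 1 and saline 3. For Sgk1 with Arrdc3 it went from 0.70 to 0.11 without CFA 1 and CFA 5. This set was lowest in CFA 1, with a mean deviation from the group mean of -0.461, and highest in CFA 3 (0.243) and CFA 5 (0.215); within saline it was lowest in saline 3 (-0.224). The closest pair was Sgk1 with Gpd1 (r = 0.90, permutation p = 2.5e-04, adjusted 0.0573; Spearman's rank correlation = 0.91, permutation p = 6.6e-04, adjusted 0.173), and r was 0.69 without CFA 1 and CFA 5, the libraries farthest from the median of Sgk1. For Klf15 with Arl4d r was 0.84 (permutation p = 3.1e-04, adjusted 0.0573; Spearman's rank correlation = 0.83, permutation p = 0.00105, adjusted 0.173), and 0.76 without CFA 1 and saline 5.

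The division between sets depends on the chosen level of r, since members outside the set of 9 also correlated with some within it (Errfi1 with Tob2 0.85, Zbtb16 with Gpd1 0.78, Txnip with Arrdc2 0.76 and Sgk1 with Cdkn1a 0.75). Without the 2 libraries farthest from the median of the first gene, these values were 0.76, 0.56, 0.33 and 0.70. Mt1, Rhob, Fam107a and Rasd1, whose fold change intervals spanned 0, formed a set of 4, with pairwise r between 0.24 and 0.88. Within this set Mt1 and Fam107a had r = 0.83 (permutation p = 3.7e-04, adjusted 0.0573; Spearman's rank correlation = 0.86, permutation p = 0.00149, adjusted 0.173) and r = 0.91 without CFA 1 and CFA 4. Errfi1, Klf9, Cebpb and Cebpd formed another, highest in CFA 3 (0.284) and lowest in CFA 4 (-0.230). Zbtb16, Cdkn1a and Nedd9 were together, as were Hif3a, Sult1a1 and Sesn1, the last set being highest in CFA 6 (0.212). Fkbp5 paired with Map3k6 (r = 0.76, permutation p = 0.00686, adjusted 0.217; Spearman's rank correlation = 0.70, permutation p = 0.0237, adjusted 0.387; r = 0.69 without CFA 1 and CFA 6) and Bcl6 with Pdk4, while Mertk, Plin4, Txnip and Mt2 joined no other member.

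**Figure D5:**
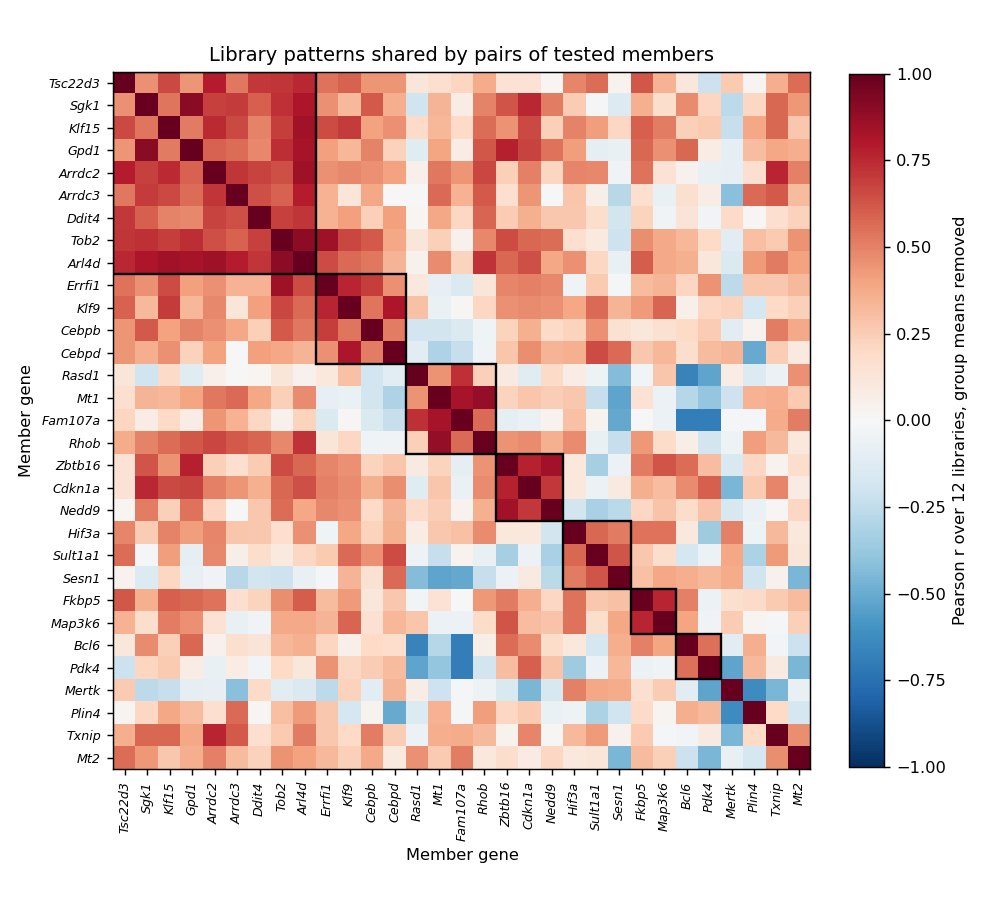
Pearson r (colour) between all tested members over 12 libraries with group means removed, ordered by pattern set; black squares frame sets joined at an average r of at least 0.5. The largest square holds 9 members, and pairs across sets also reach high r.

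The same measure was taken between 3 members and all genes outside the list. Nearest to Fkbp5 were Garnl3, Camk1g, Tma16, Hacd1 and Zc3hc1 (r of 0.89 to 0.85 over 12 libraries), nearest to Tsc22d3 were Cmtr1, Shroom2, Nav1, Lsm8 and Gpsm2 (0.88 to 0.83), and nearest to Klf9 were Pcsk1, Cep85, Lypd1, Asb7 and Gatad1 (0.93 to 0.87). Their log2 fold changes lay between -0.12 and 0.14, apart from that of Pcsk1, a prohormone convertase, at 0.38 (limma adjusted p = 0.308). These are the top of 13345 genes and are given as descriptions. Without the 2 libraries farthest from the median of the member, r was 0.51 to 0.92 for the 5 genes nearest to Fkbp5. It was 0.60 to 0.79 for those nearest to Tsc22d3 and 0.70 to 0.86 for those nearest to Klf9.

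Spread within the CFA group was wider than within saline for 23 of the 31 tested members (74.2%) and for 71.6% of all genes tested. The ratio of the SD in CFA to that in saline, on the log2(FPKM + 1) scale, had a median of 1.39 over the tested members and 1.32 over all genes tested. Without CFA 1 the medians were 1.10 and 1.28. Strand use in counting is not given in the sources used here, and 18 of the 32 members overlap another annotated gene, among them Plin4 with Hdgfl2, Cebpd with Spidr and Sult1a1 with Sgf29, all on opposite strands, so reads of such neighbours cannot be told apart.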

How the data were processed

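The submitters' processing notes name HISAT2 2.0.5 and the build mm10, and no source used here names the read counter or the annotation. Values deposited by the authors are FPKM for 12 libraries, with a gene length in bases. FPKM times length moved in whole steps, which gave 33.6 to 39.2 M reads per library; 100% of values came out whole to within 0.01 read. Gene coordinates come from the same table. Another table held 6 value columns that could be tied to no sample and were left out.

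The test was limma 3.58.1 (R 4.3.3), its moderated variance following a trend on mean level, applied to log2 of FPKM plus 1, two-sided and Benjamini-Hochberg adjusted over the 13345 genes with at least 1 FPKM in at least 6 libraries, threshold 0.05. Pair correlations used numpy 2.4.6 and permutation within groups. Fit and correlation code were tested on simulated data. Promoters came from RefSeq (GRCm38.p6). Alternatives covered pseudocount, filter, scaling, voom on recovered reads, covariates, a replicate block and left-out libraries. Replicate numbers were not treated as pairs. Members, lists and tests were chosen with earlier results of these data known. Named genes were all members, up to 4 tested genes of the smallest p in each other list, the 5 genes nearest to Fkbp5, Tsc22d3 and Klf9, and Xist, Ddx3y and Ttr; genes named for overlap with a member were chosen after seeing the data. Ependymal genes (7 of 8 tested positive, median 0.17) and pericyte and smooth muscle markers (4 of 9, median -0.07) had 0 genes past the threshold. At an unadjusted p under 0.05 by limma, 0 pericyte and smooth muscle markers were higher and 2 lower (3.11% and 4.56% of all genes tested).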

Additional observations from a re-analysis of the deposited data

Results flagged for a closer look

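In 5 of 64 groups of 6 libraries (32 members in each of saline and CFA) a single library lay far from the others by Dixon's criterion at the 95% level; chance gives about 1 in 20 groups. Errfi1 was 14.2 FPKM in CFA 3, against 11.9 in the next library. Hif3a was 3.39 FPKM in CFA 6, against 2.51 in the next. Gpd1 was 10.2 FPKM in CFA 1, against 14.4 in the next. Plin4 was 2.29 FPKM in saline 5, against 1.01 in the next, and Txnip was 5.89 FPKM in saline 1, against 8.05 in the next. The 5 values fell in 5 different libraries.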

How the results depend on the processing

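Over 31 alternatives, 6 of them chosen after seeing the data, 22 of 963 values for single members changed sign, all among 7 members, and 6 passed the threshold that had not (4 without CFA 1, and Arrdc2 and Cdkn1a without saline 1 and CFA 1). The count of members past the threshold was 0 to 4 with 1 library left out, and 2 without saline 1 and CFA 1. The count higher at an unadjusted p under 0.05 was 18 to 22 with 1 library left out and 5 among libraries with Xist; positive members numbered 27 to 30 with 1 library left out, 25 among libraries with Xist and 31 of 32 under 3 other filters. The median was 0.17 to 0.25 with 1 library left out; among libraries without Xist it was 0.37, set by CFA 3 alone, the CFA library of the highest member score. As TPM 64.8% of all genes were positive and the median of all genes was 0.03, against 0.27 for members. Map3k6 was 0.53 and Plin4 0.80 as TPM. By voom Map3k6 was 0.61, Plin4 0.95 and Hif3a 0.57.

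The count of all genes past the threshold was 4 in the report, 2 without a filter, 1 with the replicate block, 1 with Xist as covariate, 1 among libraries with Xist, 2 among those without, 1 with the immediate early mean, 13 with the striatal mean as covariate, 10 without saline 1 and CFA 1, and 1 to 11 with 1 library left out (11 without saline 3, 10 without CFA 1, 2 without saline 2 or saline 4, 1 without saline 5 or CFA 6). The cause was not tested. With the replicate block 20 members were higher at an unadjusted p under 0.05 and 0 passed; same-numbered libraries correlated at -0.0118 to 0.159. Pairs past adjustment numbered 93 without centring by group, which lets the group difference in, and 0 to 1 with 1 library left out (1 without saline 1 or CFA 2).

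Signs that changed were those of small values. Among libraries with Xist these were Rasd1 (-0.0315), Cebpb (-0.157), Txnip (-0.0451), Arrdc3 (-0.00015) and Mt1 (-0.0143). Cebpb was -0.00942 after quantile normalization, -0.00234 with the oligodendrocyte mean and -0.104 with the immediate early mean as covariate, with which Fam107a was 0.0272. Ddit4 was -0.0385 without saline 3 and saline 5, and Mt1 -0.0013 with Xist as covariate. With 1 library left out Rasd1 ran from -0.00698 to 0.104, Cebpb from -0.0444 to 0.0803, Txnip from -0.0369 to 0.0837 and Mt1 from -0.0187 to 0.0961.

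At 33.6 M reads or more per library, the members with fewest reads had 66 reads (Angptl4), 93 (Mt2) and 94 (Cebpd) in their lowest library.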
